A study of Mus musculus with 16 samples.

Results

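Haem is built by a chain of enzymes that starts and ends in the mitochondrion and passes through the cytosol in between. The first step, the joining of glycine and succinyl-CoA to aminolevulinate, is carried out by either of a pair of isoenzymes: *Alas1*, which is made in most cells and is repressed by haem, and *Alas2*, which lies on the X chromosome and is made in red blood cell precursors. *Alad* then condenses aminolevulinate to porphobilinogen, *Uros* closes the porphyrin ring, *Urod* and *Cpox* remove carboxyl groups from its side chains, *Ppox* oxidizes the ring, and *Fech*, ferrochelatase, inserts iron. The first red cells of the mouse arise in the yolk sac, where haem supply rises together with embryonic globin. These 8 enzyme genes, chosen by name, were followed through 29453 genes of a single-cell data set of *Stat3* null chimeras, and all 8 had a row in it.

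*Stat3* null ESCs, in which a block of exons of both alleles is replaced by a neomycin resistance gene and which carry an H2B-tdTomato transgene, were injected into WT CD1 host blastocysts. The heterozygous mice behind the line had been crossed to CD1, and the labelled ESCs were grown from picked colonies after puromycin selection. Chimeras were taken on embryonic day (E) 7.5, on E8.5 or on E9.5, and their cells were sorted into tdTomato-positive (null) and tdTomato-negative (WT) cells, so that the null and WT libraries of a stage were sorted from the same chimeric embryos, the WT cells being host cells without the transgene. Each genotype had 2 libraries at E7.5, 2 at E8.5 and 4 at E9.5, called A to D here as names only. Tubes held pooled embryos at E7.5 and E8.5 and a single embryo at E9.5. At E7.5 embryos were classed as large or small before pooling, so the 2 libraries of a genotype there may differ in embryo size. The cells carry no record of their pool. Which null and WT libraries share a pool is thus not recorded, shared letters were not used to pair libraries, and the fits are unpaired. So n counts libraries, and p-values measure the spread between libraries, not differences within a pool. The methods describe 2 embryos at E9.5, fewer than the 4 libraries of a genotype, so libraries there share embryos and SDs and p-values from them may be too small.

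The 16 libraries held 360 to 4327 analysed cells and 20682659 to 138613245 UMIs (unique molecular identifiers, 1 per captured transcript), with 18205 to 57791.5 UMIs in the median cell. A level is given in CPM, the usual scaling of the UMIs of a gene to a fixed total of all UMIs of the cells summed within a library. The tags come from the 3′ end of a transcript, so levels do not scale with gene length. *Stat3* itself was at 6.14 to 9.31 CPM in the WT libraries and at 1.16 to 2.53 CPM in the null libraries. The tags need not lie in the deleted exons, so this check of the labels is partial. The authors' label Erythroid, which was transferred without using haemoglobin genes, held 2194 cells. The summed level of 6 erythroid markers was 127713 to 204582 CPM in these cells at E8.5 in WT libraries and 269977 to 304219 CPM at E9.5, all 6 were detected, and 4 macrophage markers summed to 0.122 to 1.61 CPM in the same libraries. In the E8.5 null libraries the erythroid markers summed to 91418 and 188054 CPM and the macrophage markers to 0.398 and 0.976 CPM. The 5 blood progenitor markers (*Runx1*, *Gata2*, *Lmo2*, *Kit* and *Myb*) summed to 201 and 280 CPM there against 95.9 and 166 CPM in the E8.5 WT libraries, without overlap. *Lmo2* alone made up most of these sums, at 171 and 204 CPM in the null and 78.0 and 122 CPM in the WT libraries. The sums thus say little of the other markers. The part of these markers in the genotype results was not tested. Only 1 of 2193 Erythroid barcodes occurred in more than 1 library.

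In GRCm38 coordinates *Alas2* is at chrX:150547375-150570638 (plus strand), *Alas1* at chr9:106233455-106248654 (minus), *Cpox* at chr16:58670292-58717636 (plus) and *Uros* at chr7:133686243-133710072 (minus). GATA1, the factor that drives erythroid genes, binds GATA words, so the 250 bases before each RefSeq transcription start (GRCm38.p6) were searched on both strands for GATA with A or T before it and A or G after it. Such a word occurred in 3 of 10 windows of the 7 enzymes with a promoter entry and in 26.5% of all 32851 promoters. The *Alas2* window held 1, 86 bases before the RefSeq start, which lies inside the annotated gene, the *Cpox* window held 2 that overlap by a base at 91 and 86 bases, and 1 of the 2 *Uros* windows held matches, with one at 68 bases. Neither of the *Alas1* windows held one. Sequences with such matches follow, read on the strand of the gene with the GATA words in capitals, because *Alas2* and *Cpox* were the enzymes with the highest ratio of Erythroid cells to other cell types. The *Alas2* and *Cpox* stretches are upstream sequence with no annotated exon (the last bases of the *Alas2* window, past the annotated gene start, are not printed), at chrX:150547167-150547374, which lies within the neighbouring gene *Apex2*, and chr16:58669958-58670207, which overlaps no gene. The *Uros* site shown lies inside the gene, in an exon at chr7:133702551-133702580.
Alas2: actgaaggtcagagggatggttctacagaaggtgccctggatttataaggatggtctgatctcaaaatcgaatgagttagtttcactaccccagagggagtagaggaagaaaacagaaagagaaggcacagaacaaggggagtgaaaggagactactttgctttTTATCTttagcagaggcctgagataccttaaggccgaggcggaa
Cpox: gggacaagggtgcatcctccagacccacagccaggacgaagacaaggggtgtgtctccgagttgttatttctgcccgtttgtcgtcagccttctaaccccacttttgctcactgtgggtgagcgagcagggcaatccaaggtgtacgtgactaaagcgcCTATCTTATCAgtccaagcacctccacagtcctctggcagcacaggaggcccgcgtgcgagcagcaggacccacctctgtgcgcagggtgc
Uros: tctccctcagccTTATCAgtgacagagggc
A second word known from erythroid promoters, CACCC, occurred on either strand in 5 of 10 enzyme windows and in 52.0% of all promoters. A match describes these letters only.

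The isoenzymes of the first step traded places between Erythroid cells and cell types without a blood label. *Alas2* in WT Erythroid cells was at 288 and 355 CPM in the 2 E8.5 libraries (322 ± 47.4, SD, n = 2) and at 570, 599, 629 and 639 CPM in the 4 E9.5 libraries (609 ± 31.1, SD, n = 4). Every E9.5 library lay above both E8.5 libraries. Across 86 WT sums of a cell type and stage with no blood label and at least 50 cells, *Alas2* ran from 0 to 7.95 CPM with a median of 1.87 CPM. *Alas1* ran from 14.2 CPM in cranial mesoderm at E8.5 to 43.0 CPM in limb ectoderm at E9.5 over the same sums, with a median of 26.4 CPM. In WT Erythroid cells *Alas1* was at 4.59 and 7.58 CPM at E8.5 and at 3.82 to 7.27 CPM at E9.5. These Erythroid means were 0.239 and 0.184 times the median of cell types without a blood label at E8.5 and E9.5, against 102 and 389 times for *Alas2*. Cell types were assigned from expression, so levels between types are a description without a test.

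**Figure D1:**
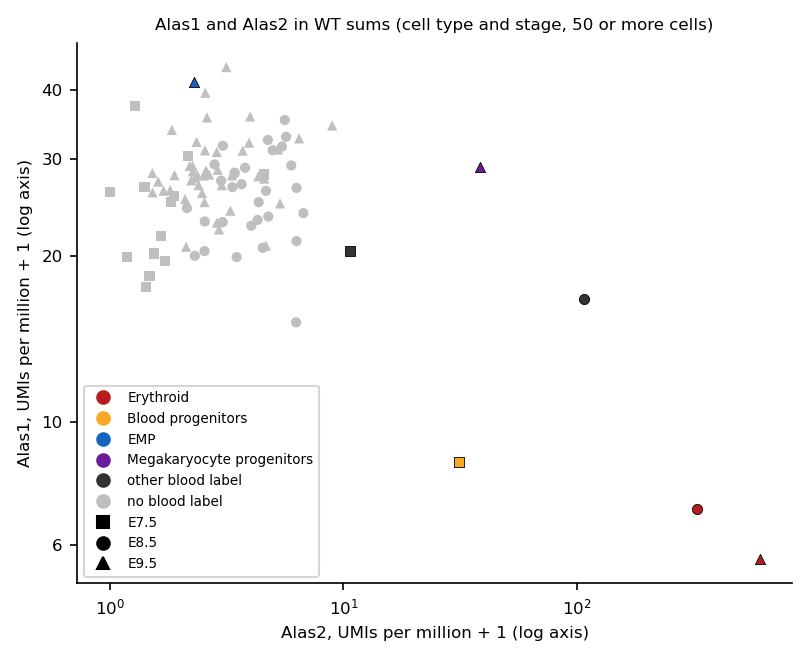
*Alas2* (x axis) against *Alas1* (y axis), both as CPM + 1 on log axes, in 93 WT sums of a cell type and stage with 50 or more cells. Grey points without a blood label stay at the upper left, and the Erythroid sums sit at the lower right, with *Alas2* at 322 and 609 CPM on average over libraries and *Alas1* below 10 CPM.

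The same contrast between labels was seen in the share of cells with a UMI, with every cell thinned at random to a depth of 10000 UMIs. *Alas2* was then detected in 94.0% of 1048 E8.5 WT Erythroid cells (92.6% and 96.0% in the 2 libraries, 99.5% unthinned) and in 91.7% of 725 null ones (78.6% and 94.6%). *Alas1* was detected in 6.68% of the WT cells and 7.45% of the null cells, against 1134 of 5157 E8.5 WT cells without a blood label. Of those 5157 cells, 3.30% had an *Alas2* UMI. Of the 70 thinned E8.5 WT Erythroid cells with an *Alas1* UMI, 66 also had one of *Alas2*, beside 94.0% of all these cells.

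The later enzymes rose in red cells by very different factors. *Alad* was the most abundant, at 979 and 1210 CPM in E8.5 WT Erythroid cells and 932 to 1285 CPM at E9.5, and *Cpox* came next at 691 and 802 CPM and then 690 to 852 CPM. The ranges of the stages overlap for both. *Fech* was at 175 and 257 CPM at E8.5 and at 299 to 332 CPM at E9.5, and *Urod* at 202 and 235 CPM and then 262 to 305 CPM, with no overlap in either case. *Uros* (72.6 ± 15.6 CPM at E8.5, SD, n = 2) and *Ppox* (56.0 ± 3.75 CPM) were the lowest of the later steps. In the order of mean level at E8.5, *Alad*, *Cpox*, *Alas2*, *Urod*, *Fech*, *Uros*, *Ppox* and *Alas1*, the neighbours *Urod* and *Fech* (218 ± 23.3 and 216 ± 57.9 CPM) did not differ beyond their spread. At E9.5 *Fech* (316 ± 17.5 CPM) and *Urod* (287 ± 19.6 CPM), and *Ppox* (64.7 ± 4.78 CPM) and *Uros* (64.6 ± 6.34 CPM), were neighbours whose ranges over libraries overlapped.

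Set against the median of cell types without a blood label at the same stage, *Cpox* was 28.8 times as high in WT Erythroid cells at E8.5 and 34.2 times at E9.5, and *Fech* 21.4 and 30.3 times. *Uros* was 13.6 and 10.8 times, *Alad* 11.2 and 11.6 times and *Ppox* 9.76 and 8.09 times as high. *Urod* had the smallest ratio of the 7 enzymes that were higher, 4.89 and 6.60 times. *Alad* had the highest level but a smaller ratio, as cell types without a blood label also carried it, at 35.7 to 165 CPM. Its highest sum without a blood label was yolk sac endothelium at E9.5, while that of *Fech* was thyroid primordium (21.0 CPM) and that of *Cpox* was E7.5 paraxial mesoderm (83.2 CPM).

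**Figure D2:**
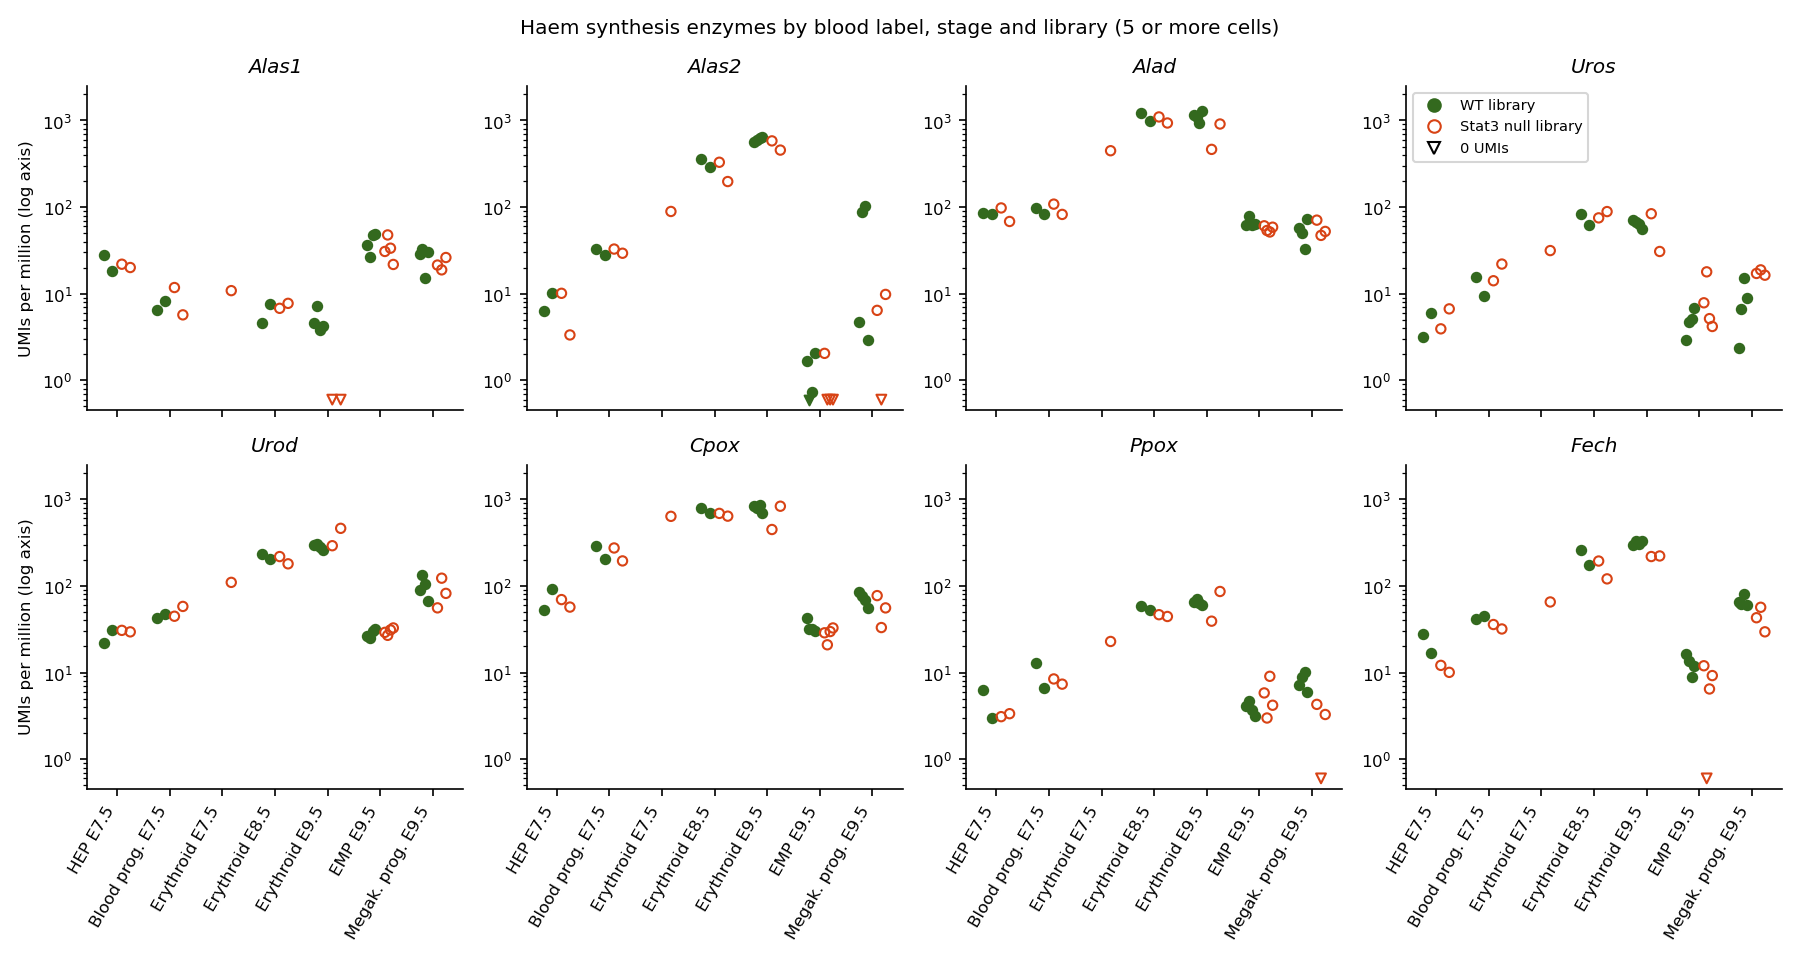
CPM (log axis) of each enzyme by blood label and stage, 1 point per library with 5 or more cells, WT filled and *Stat3* null open, triangles at the bottom for 0 UMIs. HEP stands for Haematoendothelial progenitors and EMP for erythro-myeloid progenitors. The 7 enzymes other than *Alas1* climb from HEP to Erythroid and are low again in EMP, and *Alas1* does the reverse.

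The enzymes did not rise in step along the blood labels. In E7.5 Blood progenitors *Cpox* was already at 206 and 286 CPM in the WT libraries and at 194 and 274 CPM in the null libraries. *Alas2* was at 28.2 and 33.2 CPM in the same WT libraries, and *Alad*, at 83.0 and 96.8 CPM, was a little above the range of E7.5 cell types without a blood label (35.7 to 81.9 CPM). *Alas1* was at 7.35 ± 1.17 CPM (SD, n = 2), already near its Erythroid level, against 18.4 CPM in the 1 WT library with more than 15 Haematoendothelial progenitors. In the 17 Erythroid cells of E7.5 null A, *Cpox* was at 635 CPM, *Alad* at 448 CPM, *Alas2* at 89.1 CPM and *Fech* at 65.2 CPM. The 5 E7.5 WT Erythroid cells had *Cpox* at 369 CPM (95% Poisson interval 296 to 454, counting error only), *Alad* at 402 CPM (326 to 491) and *Alas2* at 129 CPM. E8.5 WT A was the only WT library with over 15 chorioallantoic-derived erythroid progenitors (47 cells), and there *Alad* was at 485 CPM, *Cpox* at 195 CPM and *Alas2* at 92.0 CPM, the order of the E8.5 WT Erythroid cells.

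The cells of 3 labels (Haematoendothelial progenitors, Blood progenitors and Erythroid) were pooled and grouped by the percent of their UMIs that came from haemoglobin genes, and each library with 10 or more cells in a group gave 1 value. Median *Cpox* was 147 CPM under 0.1% haemoglobin, 366 CPM at 0.1 to 1%, 590 CPM at 1 to 10%, 780 CPM at 10 to 30% and 758 CPM over 30%. *Cpox* was at 48.3% of its final median at 0.1 to 1% haemoglobin. At that point the other 6 rising enzymes stood at 6.08% (*Alas2*) to 21.8% (*Uros*) of theirs. Median *Alad* made its largest step between 0.1 to 1% (147 CPM) and 1 to 10% (842 CPM), where it stood at 71.7% of its final median. *Alas2* was the latest, at 18.3, 36.7, 154, 350 and 604 CPM over the 5 groups, with 25.5% of its final median at 1 to 10% and 58.0% at 10 to 30% haemoglobin. *Fech* was next to last at 36.2% at 1 to 10%. With haemoglobin UMIs left out of the total, a choice made after seeing the data, *Cpox* kept rising to the last group (1040 CPM at 10 to 30% and 1158 CPM over 30%) and was at 31.7% of its final median at 0.1 to 1%, where the other 6 were at 4.00% (*Alas2*) to 14.1% (*Uros*). At 1 to 10% the shares were then 50.3% for *Alad*, 53.6% for *Cpox*, 25.6% for *Fech* and 18.0% for *Alas2*. *Alas1* went the other way, from 14.3 CPM under 0.1% to 3.43 CPM over 30%, where single libraries held 2 to 12 *Alas1* UMIs, and to 5.23 CPM there with haemoglobin UMIs left out of the total.

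**Figure D3:**
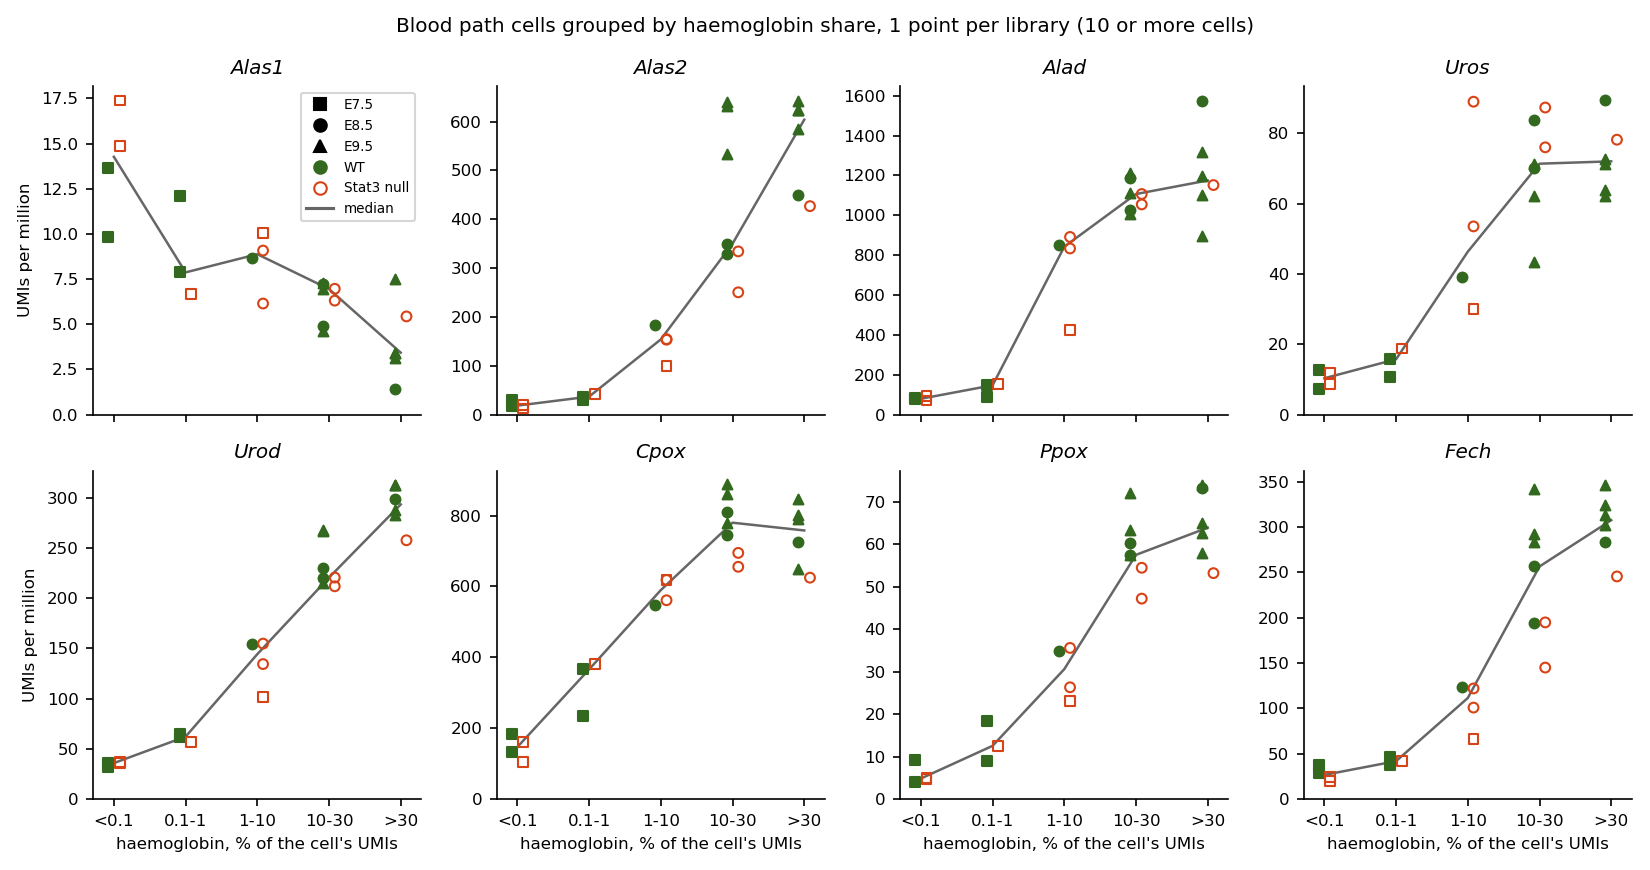
CPM of each enzyme (y axes from 0, scaled per gene) in blood path cells grouped by haemoglobin share (x axis, percent of a cell's UMIs). Each point is a library with 10 or more cells in the group, squares E7.5, circles E8.5, triangles E9.5, WT filled and null open, and the line joins the medians. *Cpox* rises early, *Alad* in the middle, and *Alas2* keeps rising to the last group, with E9.5 libraries above E8.5 libraries at 10 to 30%.

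Haemoglobin takes up part of the total that a CPM is divided by, and stage goes with haemoglobin share: E7.5 libraries fill the low groups and E9.5 libraries most of the highest. Stages met in 3 of the groups. At 1 to 10% haemoglobin E7.5 null A, with 18 cells, had *Alad* at 424 CPM, *Alas2* at 99.3 CPM and *Fech* at 66.2 CPM. These lay below the 3 E8.5 libraries, at 833 to 891, 153 to 183 and 101 to 124 CPM. *Cpox*, at 618 CPM in E7.5 null A, lay within the 548 to 618 CPM of the E8.5 libraries. Haemoglobin shares were not matched between libraries inside a group, so stage and haemoglobin share cannot be told apart. Over 30% *Alad* was at 1573 and 1152 CPM in E8.5 WT A and null A and at 895 to 1319 CPM in the E9.5 WT libraries, while *Alas2* was at 450 and 427 CPM and at 585 to 642 CPM. At 10 to 30% haemoglobin *Alas2* was at 329 and 350 CPM in the E8.5 WT libraries and at 535, 632 and 640 CPM in 3 E9.5 WT libraries, with 14 cells behind the last value. *Alad* was at 1024 and 1189 CPM and at 1006 to 1210 CPM in the same libraries, which overlap.

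The change between stages was tested in WT Erythroid cells, E9.5 against E8.5, over 8798 genes with edgeR, a gene being called where its adjusted p was under 0.05 and its log2 fold change passed 1 in either direction. Of all genes 5.51% were called, and 4.47% were called higher. Among the enzymes 1 of 8 was called: *Alas2* rose by a log2 fold change of 1.11 (SE 0.14, adjusted p = 0.000352). By the adjusted p alone, which 20.2% of all genes passed, 10.0% with a higher level at E9.5, *Urod* (0.58, SE 0.13, adjusted p = 0.00578) and *Ppox* (0.38, SE 0.13, adjusted p = 0.0493) were also higher at E9.5. *Fech* (0.72, 95% interval 0.19 to 1.26, adjusted p = 0.0657), *Cpox* (0.27, adjusted p = 0.150), *Alad* (0.22, adjusted p = 0.436), *Uros* (0.00, adjusted p = 0.996) and *Alas1* (-0.15, adjusted p = 0.746) did not pass. The median over the 8 was 0.33, beside 0.05 over all genes tested. The E9.5 libraries lay wholly above the E8.5 libraries for 4 of 8 enzymes (*Alas2*, *Fech*, *Ppox*, *Urod*), as they did for 9.27% of all genes. Haemoglobins are left out of the fit and its scaling, and the fitted changes lie above those of the mean CPM. Rises were thus larger in the fit, while falls in mean CPM were smaller there (*Uros* from 72.6 to 64.6 CPM, *Alas1* from 6.09 to 4.99 CPM).

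The call of *Alas2* rested on which E8.5 library was used. Without E8.5 WT A it was 1.41 and *Fech* was called as well, and without E8.5 WT B, the library with the lower haemoglobin share (median 13.4% of UMIs against 22.4%), it was 0.83 with an adjusted p of 1.84e-05 and no enzyme passed the fold limit. With the null libraries in the same fit it was 1.08 with an adjusted p of 0.0594. The fit was repeated in cells of 10 to 30% haemoglobin, E8.5 WT A and B against E9.5 WT A and D. There 20.8% of genes passed an adjusted p of 0.05, 6.99% were called, and 0 of 8 enzymes were called. The *Alas2* difference was 0.67 (SE 0.13, adjusted p = 0.00426) and that of *Fech* 0.37 (adjusted p = 0.203). *Urod*, *Cpox* and *Alad* lay between -0.05 and -0.01. Within these cells haemoglobin took a larger share of UMIs in both E9.5 libraries than in both E8.5 libraries. Its part in these differences was not tested. *Alas2* is X-linked, and *Xist*, the RNA of the silent X, differed among these libraries in Erythroid cells, at 0.211 and 97.5 CPM in E8.5 WT A and B and at 0.398, 337, 342 and 1.34 CPM in E9.5 WT A to D. The 2 E9.5 libraries high in *Xist* had *Alas2* at 599 and 629 CPM, between the 2 that were low. Those 2, A and D, are the E9.5 libraries of the fit at 10 to 30% haemoglobin. They may come from 1 embryo, in which case the p-values of that fit are too small.

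**Figure D4:**
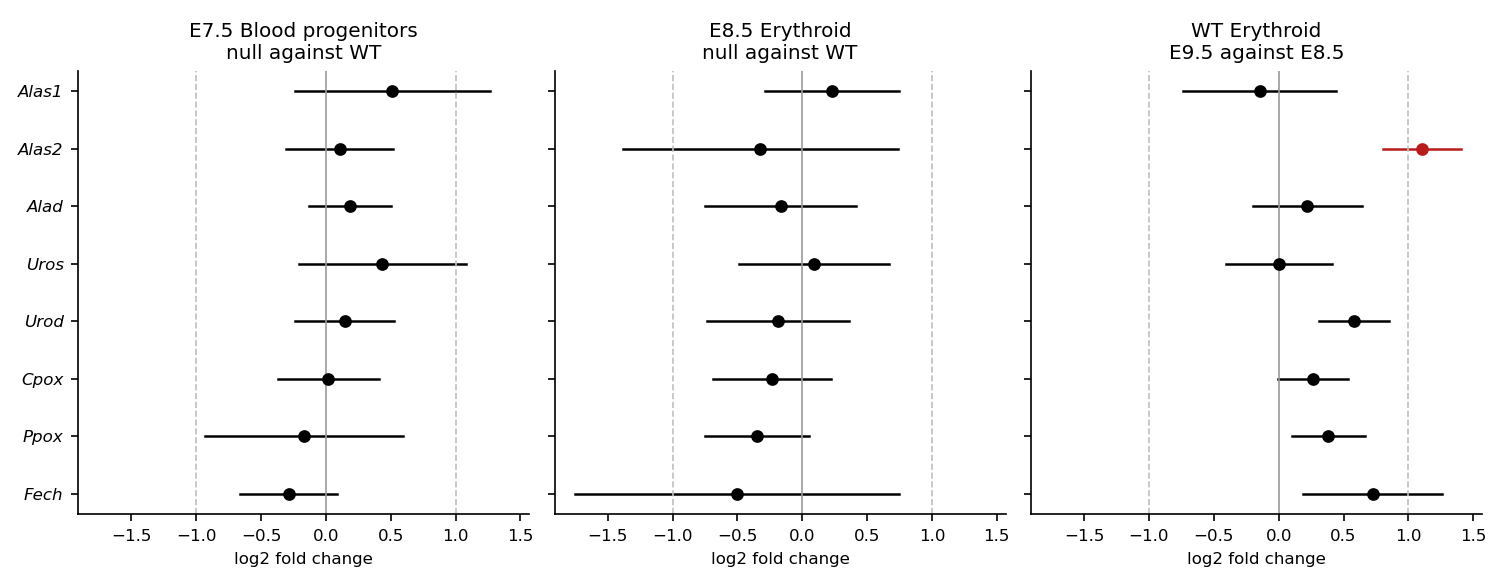
Log2 fold changes (x axis) with 95% intervals for the 8 enzymes in the 3 edgeR comparisons with more than 15 cells per library: E7.5 Blood progenitors and E8.5 Erythroid, null against WT, and WT Erythroid, E9.5 against E8.5. Dashed lines mark the fold limit, and red marks the only call, *Alas2* between stages.

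None of the 8 enzymes passed the test between null and WT in E8.5 Erythroid cells, by edgeR or by DESeq2. *Alas2* was at 330 and 197 CPM in null A and B, against 355 and 288 CPM in WT A and B, and the groups overlap. *Xist* in these cells was at 0.488 and 1.19 CPM in null A and B, against 0.211 and 97.5 CPM in WT A and B. Over all cells of a library it was at 0.185 and 4.10 CPM in null A and B, against 0.0844 and 116 CPM in WT A and B. Whether these values mark libraries of a shared pool was not tested, and nor was the part of *Xist*. Of 10143 genes tested 0.0887% were called, and 0 of 8 enzymes, none of which had an unadjusted p under 0.05. The log2 fold changes of null against WT ran from -0.50 (*Fech*) to 0.23 (*Alas1*), with adjusted p from 0.683 to 0.965. The median was -0.21, beside 0.01 over all genes tested. The null libraries lay wholly below the WT libraries for 2 of 8 enzymes, *Cpox* (686 and 638 against 802 and 691 CPM) and *Ppox* (46.5 and 44.3 against 58.6 and 53.3 CPM), as for 13.5% of all genes. With 2 libraries a side the 95% intervals reach 0.40 to 1.25 to each side, for *Alas2* from -1.38 to 0.74 and for *Ppox* from -0.75 to 0.05, so a change of 2-fold is outside the interval for *Ppox* and inside it for *Alas2*.

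Null B, the lowest of the 4 libraries in 6 enzymes (*Alas2*, *Alad*, *Urod*, *Cpox*, *Ppox* and *Fech*), also had the lowest haemoglobin share, a median of 9.21% of UMIs against 20.4% in null A. In cells of 10 to 30% haemoglobin *Alas2* was at 334 and 250 CPM in null A and B and its difference from WT was -0.23 (95% interval -0.68 to 0.21). There 1.30% of genes and 0 of 8 enzymes were called, and *Ppox* (-0.27, adjusted p = 0.369) and *Cpox* (-0.24, adjusted p = 0.422) had unadjusted p of 0.0340 and 0.0460. Leaving out E8.5 WT A or null B took the *Alas2* difference to 0.00 and 0.06, while leaving out WT B or null A took it to -0.60 and -0.89 (adjusted p = 0.895 and 0.068).

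In E7.5 Blood progenitors no enzyme passed either, again by both tools. *Alas2* was at 29.4 and 32.8 CPM in the null libraries and at 28.2 and 33.2 CPM in the WT libraries. Of 8194 genes 0.342% were called, and 0 of 8 enzymes, with adjusted p from 0.996 to 0.997 and an unadjusted p under 0.05 for none. *Fech* was lower in both null libraries (31.8 and 35.8 CPM) than in both WT libraries (41.9 and 45.0 CPM), as were 21.6% of all genes, with a log2 fold change of -0.29 (95% interval -0.66 to 0.09). At E9.5 the null libraries held 19 Erythroid cells in all against 380 WT cells, too few for the limit of 15. A fit without that limit tested 4373 genes, of which 1.14% were called, and called 0 of 7 enzymes. *Fech* had the lowest p there (-0.62, adjusted p = 0.126), at 218 to 281 CPM in the null libraries against 299 to 332 CPM in WT, lower without overlap, as for 3.64% of all genes. *Alas1* had 0 UMIs in the 19 null cells and was not tested.

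Over every cell type with enough cells the count stayed at 0. There were 50 enzyme tests in 7 types at E7.5, 122 in 20 types at E8.5 and 220 in 37 types at E9.5, none called, where 0.186%, 0.0609% and 0.120% of all gene tests were. An unadjusted p under 0.05 occurred in 0, 1 and 18 of them, and in 4.06%, 4.32% and 6.26% of all gene tests. *Alas2* passed the filter on low counts in 1 type at E7.5 and 3 at E8.5. It was not tested in any type at E9.5, so the E9.5 counts say nothing of *Alas2*. At E9.5 *Alad* was lower in null cells in 29 of 37 types (median log2 fold change -0.08), *Urod* in 26 of 37 (-0.08) and *Fech* in 26 of 32 (-0.23). *Cpox* was lower in 24 of 37 (-0.06) and *Ppox* in 17 of 20 (-0.22), while *Uros* was higher in 14 of 20 (0.12) and *Alas1* in 23 of 37 (0.06). These types share their libraries, the same counts over all genes were not made, and no direction is read from them.

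At E8.5 and E9.5 *Alas2* UMIs outside blood were highest where haemoglobin UMIs were. In cells without a blood label *Alas2* was at 3.72 and 3.81 CPM in the E8.5 WT libraries and at 1.30 and 4.25 CPM in the null libraries. At E9.5 it was at 1.08 to 2.53 CPM in WT and at 0.165 to 0.431 CPM in null libraries, and *Hbb-y*, an embryonic beta-like globin, was at 224 to 549 CPM and 3.79 to 42.3 CPM in the same cells. Per 1000 haemoglobin UMIs these cells had 2.06 to 2.67 *Alas2* UMIs in the E8.5 libraries and the E9.5 WT libraries, beside 1.57 to 2.08 in the Erythroid cells of the same libraries. In the E9.5 null libraries, on 15 to 43 *Alas2* UMIs each, the ratio was 2.21 to 17.3. Erythroid cells made up 1.63% to 5.32% of the E9.5 WT libraries and 0.0830% to 0.388% of the null libraries. The part of free RNA in these *Alas2* UMIs was not tested. At E7.5, with almost no haemoglobin in these cells, *Alas2* was at 0.501 to 1.05 CPM.

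**Figure D5:**
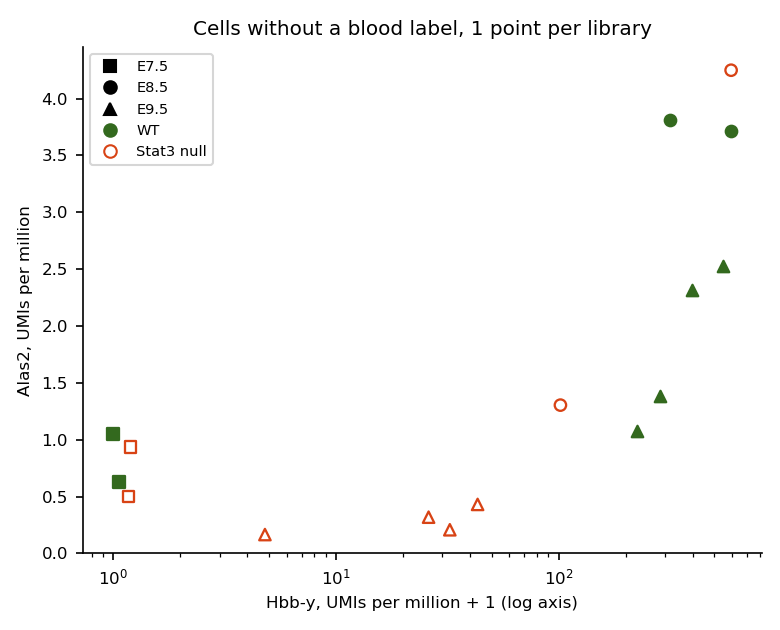
*Alas2* (y axis, CPM) against *Hbb-y* (x axis, CPM + 1, log axis) in cells without a blood label, 1 point per library. The E9.5 null libraries lie low on both axes, the E8.5 libraries and E9.5 WT libraries with over 100 CPM of *Hbb-y* lie higher in *Alas2*, and E7.5 libraries have *Alas2* near 1 with *Hbb-y* near 0.

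Blood labels other than Erythroid kept the non-blood pattern in part. In E9.5 WT erythro-myeloid progenitors, which give later red and myeloid cells, *Alas1* was at 40.1 ± 10.7 CPM (SD, n = 4) and *Alas2* at 1.12 ± 0.935 CPM, with *Cpox* at 34.1 and *Fech* at 12.6 CPM. In the 2 E9.5 WT libraries with more than 15 Megakaryocyte progenitors *Fech* was at 60.8 and 61.9 CPM and *Urod* at 67.6 and 135 CPM, while *Alas1* was at 30.4 and 33.2 CPM. *Alas2* differed widely among the 4 E9.5 WT libraries with this label, at 2.94 and 4.76 CPM in D and A and at 88.5 and 104 CPM in B and C. These sums held 10 to 34 cells, and the 4 libraries of 1 group thus fell into a low and a high pair. Over all cells of a library *Xist* was at 0.323 and 0.114 CPM in D and A and at 622 and 625 CPM in B and C, the same pairs. Haemoglobin took 0.138% and 0.171% of the UMIs of these progenitors in D and A and 2.59% and 2.83% in B and C. The part of either in this difference was not tested.

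Among the genes whose WT levels followed *Alas2* most closely over the 93 sums, by Pearson's r of log2(CPM + 1), were *Trim10* (0.886), *Hemgn* (0.886) and *Epb42* (0.885). *Epb42* codes for a protein of the red cell membrane skeleton. Among the enzymes *Alas1* was negatively correlated with each of the other 7 (r from -0.640 to -0.494), and these were positively correlated with each other, with the highest r for *Cpox* and *Fech* (0.826). Over the 86 sums without a blood label, which leave out the 7 blood sums, r between enzymes ran from -0.392 to 0.379. All sums share libraries, and these values are descriptions.

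The rest of the haem system was read from 4 lists, beside the 4.47% of all genes called higher and the 10.0% higher by the adjusted p alone at E9.5. Of 10 genes of haem transport and mitochondrial import, 0 were called between stages and 3 passed the adjusted p alone, all higher at E9.5: *Abcb10*, a mitochondrial transporter that stabilizes iron import (0.85, adjusted p = 0.000158), *Slc25a37*, the mitoferrin that brings iron into red cell mitochondria (0.67, adjusted p = 0.00608), and *Slc25a39* (0.41, adjusted p = 0.0467). Their list median was 0.46, beside 0.33 for the enzymes. Of 10 genes of iron handling and haem sensing 0 were called and 3 passed the adjusted p, *Tfrc*, the transferrin receptor (0.64, adjusted p = 0.0107), the ferritin chain *Fth1* (0.45, adjusted p = 0.0396) and the iron regulatory protein *Ireb2* (0.42, SE 0.14). *Ftl1*, the other ferritin chain, was at 3746 and 3796 CPM at the 2 stages (adjusted p = 0.532). Of 6 genes of haem breakdown and export 5 were tested and 0 called, with *Hmox2*, a haem oxygenase, lower by the adjusted p (-0.57, adjusted p = 0.0243), and *Blvrb* and *Abcg2* at 0.27 and 0.39 without passing. Of 6 erythroid regulators 0 were called, *Lmo2* was lower by the adjusted p (-0.88, adjusted p = 0.00114), and *Zfpm1* (-0.25) and *Klf1* (0.25), the highest in WT, did not pass. In cells of 10 to 30% haemoglobin, between the same stages, *Abcb10* (0.97, adjusted p = 0.000409), *Slc25a37* (0.48, adjusted p = 0.0166) and *Tfrc* (0.50, adjusted p = 0.00843) were again higher by the adjusted p. *Slc25a39*, *Fth1* and *Ireb2* did not pass as higher there. *Lmo2* was called lower in these cells (-1.24, adjusted p = 0.000455). Genes lower by the adjusted p alone included *Hmox2* (-0.77, adjusted p = 0.0210) and *Glrx5*, which takes part in iron-sulphur cluster assembly (-0.49, adjusted p = 0.0107). Among them were also *Gata1* (-0.47, adjusted p = 0.0284) and *Zfpm1* (-0.38, adjusted p = 0.0325). The E9.5 side of this fit at 10 to 30% haemoglobin was WT A and D, which may come from 1 embryo.

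Between genotypes 0 genes of the 4 lists were called in E8.5 Erythroid cells. *Tmem14c*, which moves a porphyrin intermediate into the mitochondrial matrix for the last steps, was at 1716 and 2048 CPM in the null libraries and 936 and 1098 CPM in the WT libraries, without overlap, and did not pass (0.83, SE 0.22, adjusted p = 0.378). Of 10143 genes tested, 1347 were higher in null without overlap. The E9.5 WT Erythroid libraries alone ran from 1138 to 2151 CPM of *Tmem14c*. In E7.5 Blood progenitors *Tmem14c* passed the adjusted p but not the fold limit (0.73, adjusted p = 0.00157), the only gene of the 4 lists to do so there, where 0.244% of all genes were higher by the adjusted p. At E9.5, in the fit without a minimum of cells and without null A, it was at -0.04 (adjusted p = 0.986). In E8.5 cells of 10 to 30% haemoglobin, where 2.13% of genes passed the adjusted p alone, so did *Tmem14c* (0.89, adjusted p = 0.00100), *Fam210b* (-0.95, adjusted p = 0.00118) and *Lmo2* (0.86, adjusted p = 0.000264). Over all E8.5 Erythroid cells *Fam210b* was at 80.0 ± 5.18 CPM in null and 158 ± 31.9 CPM in WT libraries (SD, n = 2) and did not pass (-1.05, adjusted p = 0.331), nor did *Lmo2* (0.88, adjusted p = 0.0773). The log2 fold changes of the most abundant members were -0.37 (*Slc25a37*), -0.08 (*Blvrb*), -0.29 (*Abcg2*), -0.02 (*Fth1*), -0.04 (*Ftl1*), 0.11 (*Zfpm1*) and -0.22 (*Klf1*), and none passed. In the E9.5 fit without a minimum of cells *Nfe2*, an erythroid transcription factor, was called higher (1.29, adjusted p = 0.0214), and it did not pass without null A (0.97, adjusted p = 0.131). In these cells the blood progenitor markers summed to 252, 112, 25.6 and 271 CPM in null A to D (45, 9, 1 and 44 UMIs) against 48.1 to 91.7 CPM in WT, the erythroid markers to 203508 to 359924 CPM against 269977 to 304219 CPM, and the median mitochondrial share was 0.465% to 1.40% of UMIs against 1.34% to 1.75%. Of the blood progenitor markers, *Kit* and *Myb* were not detected in the null cells, while all 5 were in WT. The part of the markers and of the mitochondrial share in the E9.5 differences was not tested. The haemoglobins were left out of the tests. *Hba-x* was at 93422 ± 20173 CPM in E8.5 WT and 82790 ± 26288 CPM in null Erythroid cells, and *Hbb-y* at 51216 ± 30384 and 39517 ± 38499 CPM (SD, n = 2 each), with overlap for both. *Hba-a1* and *Hbb-bh1* overlapped as well. *Hba-a2* was at 2723 and 2023 CPM in null A and B against 799 and 445 CPM in WT A and B, without overlap, beside 12594 and 7202 against 21226 and 10248 CPM for *Hba-a1*. The pair are near-identical copies, so the split of reads between them is uncertain. The adult globins *Hbb-bs* (372 and 535 against 601 and 556 CPM) and *Hbb-bt* (10.6 and 9.34 against 16.9 and 15.8 CPM) were lower in both null libraries. These levels were not tested.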

How the data were processed

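Single cells of sorted null and WT fractions were profiled with 10x 3′ chemistry in 16 libraries. The authors mapped reads to mm10 with Cell Ranger, filtered cells on UMIs, genes, mitochondrial and ribosomal shares, called doublets and transferred cell type labels from a gastrulation atlas. The deposited values are raw UMI counts per gene and cell, with no normalization. Mitochondrial percent values per cell were computed by the authors and used as a check only.

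Cells called doublets were removed, as were cells sorted as WT in which tdTomato was detected, which left 37841 of 41832 cells. Groups came from the stage and genotype in the labels. Counts were summed per library and cell type and tested with edgeR 4.0.16 (filterByExpr, TMM, robust quasi-likelihood) where 2 or more libraries of each group had over 15 cells of a type, with Benjamini-Hochberg adjustment over all genes of the type. In the tests 8178 of 29453 genes (haemoglobins, tdTomato, X-inactivation RNAs, Y-linked, ribosomal protein, mitochondrial and predicted genes) were left out. DESeq2 1.42.0, RLE scaling, other filters and left-out libraries were alternatives. The fit was tested on simulated data with a fixed spread between libraries, not one estimated from these data. That test does not show how the fit performs at the real spread. Named were the 8 enzymes, every called gene of a list or else the 2 highest in WT, and the 5 genes most correlated with *Alas2*. Some items that the rule names are not reported here. Other list genes that passed the adjusted p, *Fam210b*, the haemoglobins and *Hmox1* were named after their values were seen. The members and lists were chosen with earlier results of these data known. Of 8 breakdown genes, 6 were analysed here. Promoters came from RefSeq tables, gene positions from GENCODE vM21. Intervals of shares (95%, exact binomial) cover counting error only. Columns of per-sample values left unmatched numbered 0.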

Additional observations from a re-analysis of the deposited data

Results flagged for a closer look

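Among 20 groups of 4 libraries examined, 2 had a library that stood apart from the other 3, where chance gives about 1 in 20. In E9.5 WT erythro-myeloid progenitors *Alad* was at 78.8 CPM in library B against 63.1 CPM in the next, and *Cpox* at 42.7 CPM in library A against 31.8 CPM in the next. Between genotypes in this cell type neither enzyme was called (*Alad* -0.14, adjusted p = 0.882, *Cpox* -0.17, adjusted p = 0.887, by edgeR).

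Doublet calls, which carry no cell type and enter no comparison, held *Alas2*. A count of 5 or more *Alas2* UMIs was found in 17.6% of 524 E8.5 WT doublet calls (95% exact binomial interval 14.4% to 21.1%), in 10.4% of 414 E8.5 null ones (7.62% to 13.7%) and in 2.98% of 1008 E9.5 WT ones (2.02% to 4.22%). In single cells of the same groups without a blood label it was 0.175%, 0.337% and 0.0821%. Doublet calls had median depths of 43877, 52594 and 60241 UMIs, against 20711, 26815 and 29264 in the single cells. Of 970 E9.5 null doublet calls 0 had 5 *Alas2* UMIs, which allows up to 0.380% (upper exact binomial limit).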

How the results depend on the processing

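No paired analysis was possible because cells are tied to libraries whose names give neither a replicate number nor an embryo pool. Of 383 alternative values for single enzymes, 344 kept their direction. No enzyme was called between genotypes in E8.5 Erythroid cells or E7.5 Blood progenitors under any alternative that could be fitted, leave-one-out included. Over all E9.5 types 7 enzyme calls appeared with no filter on low counts, all *Alas2* lower in null cells of types without a blood label. They were 7 of 296 enzyme tests, beside 1194 of 551559 tests of all genes, and in these 7 types *Hbb-y* was at 102 to 1004 CPM in WT and at 1.98 to 30.7 CPM in null libraries. The part of free RNA was not tested. Calls over all genes and types were then 280 at E7.5, 489 at E8.5 and 1194 at E9.5, against 121, 103 and 389 in the fits reported, and with null cells lacking a tdTomato UMI left out 72 at E7.5 in 5 types instead of 7.

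For the change between stages, 3 enzymes were called by the adjusted p alone, 0 with all libraries in 1 fit, 0 in cells of 10 to 30% haemoglobin (chosen after seeing the data) and 0 to 2 when a library was left out. *Uros* lay near 0 and turned to -0.016 with DESeq2, -0.018 with RLE scaling, -0.050 with no filter on low counts, -0.0047 with all genes kept, -0.070 with more than 50 cells per library and -0.025 with all libraries in 1 fit. In cells of 10 to 30% haemoglobin *Alas1* was 0.15, *Alad* -0.047, *Uros* -0.52, *Urod* -0.010 and *Cpox* -0.015. The fits between stages without 1 library used WT libraries alone or all libraries of the label, of every stage and genotype. Those between genotypes used all libraries of the label in 1 fit, of every stage. Over the 12 fits without 1 library, *Alas2* ranged from 0.81 to 1.41, *Alad* from -0.075 to 0.53, *Alas1* from -0.37 to 0.082, *Uros* from -0.35 to 0.40, *Fech* from 0.33 to 1.19, *Urod* from 0.32 to 0.84, *Ppox* from 0.16 to 0.60 and *Cpox* from 0.0059 to 0.52. Over the 4 such fits between genotypes at E8.5, *Alas2* ranged from -0.89 to 0.058, *Alad* from -0.45 to 0.16, *Urod* from -0.46 to 0.090, *Cpox* from -0.48 to 0.041 *Uros* from -0.24 to 0.50, *Fech* from -1.04 to -0.019, *Ppox* from -0.56 to -0.12 and *Alas1* from 0.031 to 0.45. In E7.5 Blood progenitors *Alas1* ranged from -0.34 to 0.71, *Alas2* from -0.026 to 0.21, *Alad* from -0.081 to 0.32, *Cpox* from -0.29 to 0.26 and *Ppox* from -0.64 to 0.36, and *Cpox* was -0.025 with DESeq2. The E9.5 *Ppox* difference was 0.084 without null A, and that of *Uros* was -1.12 (adjusted p = 0.264) instead of -0.40. The causes were not tested.

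With haemoglobin UMIs left out of the total, E8.5 WT Erythroid levels were 1350 CPM for *Alad*, 397 for *Alas2*, 919 for *Cpox*, 68.8 for *Ppox*, 269 for *Urod* and 89.8 for *Uros*, and at E9.5 they were 1666 for *Alad*, 7.47 for *Alas1*, 906 for *Alas2*, 1173 for *Cpox*, 471 for *Fech*, 96.4 for *Ppox*, 427 for *Urod* and 96.2 for *Uros*. As means over cells, E9.5 *Ppox* was 72.5 CPM and *Uros* 56.8 CPM. A lone library was assumed to vary like the others. More than 50 cells per library could not be fitted in Blood progenitors, nor could null cells without a tdTomato UMI be left out there.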

Other observations

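The 9 Erythroid cells of E9.5 null A differed among themselves, by a criterion chosen after the values were seen. In 4 of them *Alas2* had at least 5 UMIs while *Alad*, the higher of the pair in the E9.5 WT Erythroid sums, had 2 or fewer. This held for 1 of 380 E9.5 WT Erythroid cells and 0 of the 10 cells of the other null libraries. *Hmox1*, the inducible haem oxygenase, was detected in 3 of the 9 cells, with 5, 19 and 8 UMIs, in 1 of the 6 cells of null D, with 1 UMI, and in 8 of 380 WT cells. Among the 4 cells, 2 had low label transfer scores (0.44 and 0.32) and mitochondrial shares of 0.06% and 0.07% of UMIs. The highest haemoglobin share among the 9 was 34.3% and the lowest 8.60%.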
